A study of Mus musculus with 20 samples.

Results

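The collagen gene family was described in the livers of 20 mice. Its members were all rows of the count table whose symbol has the form of a collagen chain (Col, a type number, a, a chain number), which gave 44 of 46095 gene symbols. The livers came from wild-type (WT) mice and from mice with a liver-specific knockout of Pck1 (Pck1-cKO, here KO), each fed a chow diet or a NASH diet for 24 weeks, with 5 mice in each of the 4 groups. All mice were 31 to 33 weeks old. The NASH diet is given to produce non-alcoholic steatohepatitis, a fatty and inflamed liver that can scar. The design asks what Pck1, the cytosolic phosphoenolpyruvate carboxykinase of gluconeogenesis, contributes in that model. The sources used here give neither the diet's composition nor the driver of the deletion.

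Collagens are secreted proteins in which 3 chains wind around each other in a triple helix. Fibrillar collagens (types I, III and V among them) assemble into the fibres of scar tissue, type IV forms the sheet of the basement membrane, type VI forms beaded filaments around cells, and other classes coat fibres or span the cell membrane. In liver, stellate cells and portal fibroblasts are the best known sources of fibrillar collagen, endothelial and stellate cells make type IV, and hepatocytes make Col18a1, whose C-terminal fragment is endostatin. A bulk library counts RNA of all these cells together, so more cells of a type and more RNA per cell cannot be told apart in what follows.

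The chains of the type IV heterotrimer, Col4a1 and Col4a2, were called higher in KO liver on both diets, and their genes lie head to head. RefSeq places the first base of Col4a1 at position 11312826 on the minus strand of chromosome 8 and that of Col4a2 at 11312805 on the plus strand (GRCm38.p6), so that the first exons overlap by 22 bases on opposite strands. The window below is chr8:11312801-11312830, written 5′ to 3′ on the plus strand, with the shared bases in capitals.
Col4a1 and Col4a2 start: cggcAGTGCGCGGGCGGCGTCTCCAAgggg
In GENCODE M21 the transcribed parts of the genes also shared 22 bases. The sources used here do not say whether the counting used the strand, so reads that fall wholly within the overlap could be given to either gene, and this window is short beside transcripts of 6.615 kb (Col4a1) and 6.45 kb (Col4a2).

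Upstream sequence is shown for 4 further chains whose levels differed between groups and whose 250 bases before the RefSeq start hold no annotated exon. They are Col27a1, the chain that fell in KO liver on chow, Col5a3 and Col6a3, which rose between chow-fed KO and NASH-fed KO, and Col15a1, which rose with the diet in WT. The windows of Col13a1 and of an entry of Col6a2 also hold no annotated exon and are not shown. The Col27a1 window precedes the RefSeq start but lies inside the gene as GENCODE M21 places it, from 63214004. Capitals mark matches to CCAAT (a core motif bound by NF-Y), GGGCGG (bound by Sp1 and its relatives) or TATAAA (the TATA box), searched on both strands, so that an opposite-strand GGGCGG appears as CCGCCC.
Col27a1, chr4:63215162-63215411, plus strand: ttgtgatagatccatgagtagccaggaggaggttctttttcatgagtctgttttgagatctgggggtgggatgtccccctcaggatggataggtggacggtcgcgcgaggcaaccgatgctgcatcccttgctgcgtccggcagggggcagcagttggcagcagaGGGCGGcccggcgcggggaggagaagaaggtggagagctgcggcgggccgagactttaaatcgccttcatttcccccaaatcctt
Col5a3, chr9:20815068-20815317, minus strand: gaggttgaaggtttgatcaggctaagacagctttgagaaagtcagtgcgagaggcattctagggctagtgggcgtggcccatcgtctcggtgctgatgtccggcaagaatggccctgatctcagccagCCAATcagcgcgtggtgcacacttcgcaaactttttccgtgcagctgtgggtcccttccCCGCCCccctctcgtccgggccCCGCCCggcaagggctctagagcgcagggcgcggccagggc
Col6a3, chr1:90843972-90844221, minus strand: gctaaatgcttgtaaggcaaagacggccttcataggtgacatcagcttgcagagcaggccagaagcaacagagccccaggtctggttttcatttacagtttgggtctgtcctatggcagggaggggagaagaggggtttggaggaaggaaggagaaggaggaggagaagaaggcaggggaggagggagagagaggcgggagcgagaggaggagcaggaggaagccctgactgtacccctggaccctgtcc
Col15a1, chr4:47207762-47208011, plus strand: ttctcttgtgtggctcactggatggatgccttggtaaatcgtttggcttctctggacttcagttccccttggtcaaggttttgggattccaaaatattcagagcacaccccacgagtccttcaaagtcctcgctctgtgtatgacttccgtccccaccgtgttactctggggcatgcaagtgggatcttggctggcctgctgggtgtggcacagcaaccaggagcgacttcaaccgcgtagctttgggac
Col5a3 held CCAAT 122 bases before the start and GGGCGG on the opposite strand at 63 and 41 bases, and Col27a1 held GGGCGG at 85 bases. Col6a3 and Col15a1 held none of the 3 motifs in this window. RefSeq had promoter entries for 35 of the 44 members (38 entries). CCAAT was in 13 of these 38 windows, GGGCGG in 22 and TATAAA in 5, where 33.8%, 32.7% and 12.4% of all 32851 windows of that length held them. A match is a description of the letters and not evidence of binding.

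Library totals ran from 9958935 to 20601955 counts, and levels are given as CPM (counts scaled to a library of 1000000 after TMM scaling), of which 1 equals 6.8 to 24.9 reads depending on the library. Pck1, the targeted gene, was at 3573 ± 1139 CPM in chow-fed WT, 2290 ± 511 in NASH-fed WT, 626 ± 175 in chow-fed KO and 445 ± 112 in NASH-fed KO (SD, n = 5 each), and the KO libraries lay below the WT libraries on both diets. The labels give no sex, and Y-linked counts put 5 males in chow-fed WT, 1 male and 4 females in NASH-fed WT, 3 males and 2 females in chow-fed KO, and 4 males and 1 female in NASH-fed KO. In 6 libraries (chow-fed WT replicates 3, 4 and 5, NASH-fed WT replicate 4, chow-fed KO replicates 4 and 5) expression relative to the mean library fell with transcript length, with slopes of -0.34 to -0.25, against 0.01 to 0.19 in the other 14. The summed collagen level was 343 to 387 CPM in those libraries of chow-fed WT and 1016 and 1091 CPM in the other two, and NASH-fed KO held no such library. Results are therefore also given with sex or the slope in the model, in males alone and without those 6 libraries. The males-alone fit has 1 NASH-fed WT library, assumed to vary like the other groups.

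Col18a1 dominated the family. Compared per length of the longest coding transcript, its level was 106.9 ± 50.8 CPM per kb (SD over the 20 libraries), and it made up 45.5% to 84.1% of the summed collagen CPM per kb of a library (median 70.3%). Col14a1, a collagen that binds to the surface of fibrils, followed at 8.64 ± 3.28 CPM per kb, then Col4a1 at 7.67 ± 5.67, Col3a1 at 5.44 ± 4.23, Col4a2 at 4.42 ± 3.47 and Col1a2 at 2.90 ± 2.42. This order is pooled over groups that differ. Col14a1 lay above Col4a1 in chow-fed WT (5.54 ± 2.39 against 2.85 ± 1.15 CPM per kb) and NASH-fed WT (8.64 ± 0.768 against 4.37 ± 0.418), and its mean lay below that of Col4a1, within the SD, in chow-fed KO (8.12 ± 2.95 against 9.30 ± 4.87) and NASH-fed KO (12.3 ± 2.72 against 14.2 ± 5.37). Col18a1 had the highest mean in each group. Col6a1, Col5a3, Col13a1, Col1a1, Col6a3, Col6a2 and Col15a1 lay between 1.01 and 2.12 CPM per kb, and the remaining chains were lower. Of the 44 members, 24 passed the low-count filter among 14440 tested genes. The other 20 did not, among them Col2a1, Col10a1 and Col26a1 with no count in any library.

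A gene was called where its p in edgeR's quasi-likelihood test, adjusted over all 14440 genes by Benjamini-Hochberg, was under 0.05. In NASH-fed WT against chow-fed WT 1 of the 24 tested chains was called (4.17%), and it was higher. Of all tested genes 5.93% were called there, 2.69% higher and 3.24% lower. In chow-fed KO against chow-fed WT 3 chains were called (12.5%), 2 higher and 1 lower, where 5.53% of all genes were called, 3.03% higher and 2.49% lower. In NASH-fed KO against NASH-fed WT 5 were called (20.8%), all of them higher, where 9.65% of all genes were called, 4.9% higher and 4.74% lower. In NASH-fed KO against chow-fed KO 5 were called (20.8%), again all higher, where 3.29% of all genes were called, 1.77% higher and 1.52% lower. Chains can pass the filter through the group in which they are high, so these shares describe the tested chains and not the family. Each group enters 2 of these comparisons, so they are not independent of each other. Groups did not overlap, with all libraries higher, in 1, 1, 4 and 5 of the 24 chains in that order of comparisons, where 2.9%, 2.26%, 7.67% and 4.19% of all genes did so. All libraries were lower in 0, 1, 0 and 0 chains, where 3.25%, 2.65%, 6.44% and 4.31% of all genes were.

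The median log2 fold change of the tested chains was 0.64 for the diet in WT, 0.23 for the genotype on chow, 0.89 for the genotype on the NASH diet and 1.07 for the diet in KO. Over all tested genes these medians were 0.01, 0, 0 and -0.02. The fold change was above 0 in 19, 15, 20 and 24 of the 24 chains in that order. The interaction takes the genotype difference on chow away from that on the NASH diet. For it edgeR called 0 chains, where 0.139% of all genes were called (0.0554% higher, 0.0831% lower). The interaction was above 0 in 20 of the 24 chains (median 0.48), as in 46.8% of all genes (median -0.03). Without adjustment 5 of the 24 chains had a p under 0.05, as did 8.25% of all genes. DESeq2 called 2 chains and 1.31% of all genes, and limma voom 2 chains and 13.5% of all genes.

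**Figure D1:**
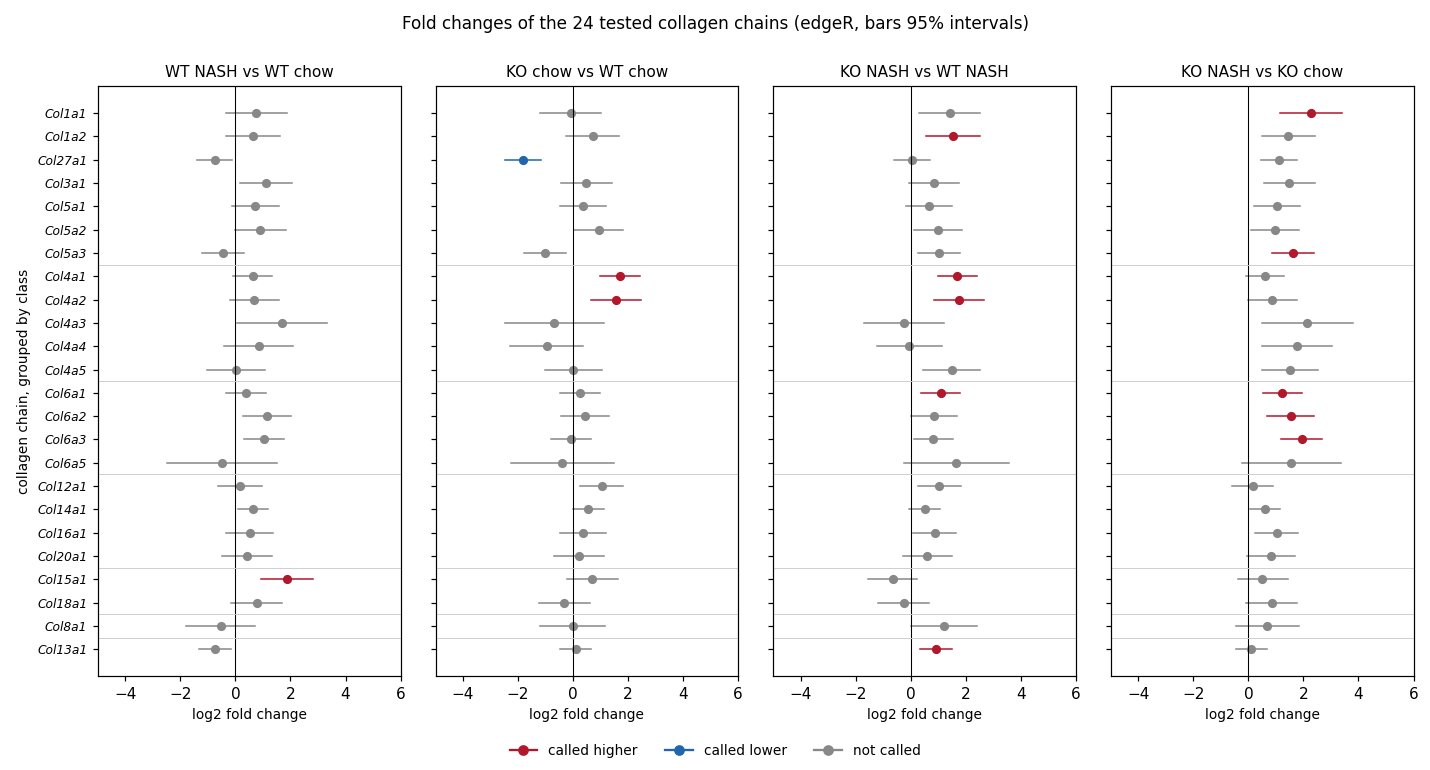
Log2 fold changes of the 24 tested collagen chains (rows, grouped by class) in 4 comparisons (panels), from edgeR, with 95% intervals as bars and red or blue marking chains called higher or lower. Points lie on both sides of 0 in chow-fed KO against chow-fed WT and all 24 lie above 0 in NASH-fed KO against chow-fed KO.

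Both main chains of type IV collagen, the network of the basement membrane, were higher in KO than in WT liver on both diets. Col4a1 (chromosome 8, 11198423 to 11312826, GRCm38, minus strand) stood at 28.2, 25.9, 14.3, 14.2 and 11.5 CPM in chow-fed WT replicates 1 to 5 and at 72.6, 111, 37.6, 30.8 and 55.4 CPM in chow-fed KO. On the NASH diet it was at 33.4, 26.4, 28.5, 26.9 and 29.4 CPM in WT and at 132, 65.3, 84.2, 56.6 and 130 CPM in KO. Each KO library lay above each WT library of its diet, and the NASH-fed WT libraries lay close together. The log2 fold change was 1.71 (SE 0.337, a 3.26-fold difference, edgeR's adjusted p = 0.00571) on chow and 1.69 (SE 0.336, 3.24-fold, edgeR's adjusted p = 0.00401) on the NASH diet. Genes whose KO libraries all lay above the WT libraries made up 2.26% of all tested genes on chow and 7.67% on the NASH diet. The difference between the diets in this genotype effect was -0.01 (95% interval -0.99 to 0.97).

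Col4a2 (chromosome 8, 11312805 to 11449287, plus strand) is the partner chain. It was at 16.4, 19.8, 3.88, 6.27 and 5.20 CPM in chow-fed WT, 20.1, 16.8, 19.6, 13.1 and 14.3 in NASH-fed WT, 30.4, 62.0, 27.7, 15.3 and 17.9 in chow-fed KO, and 78.1, 35.1, 54.0, 38.6 and 75.9 in NASH-fed KO. KO and WT overlapped on chow, where chow-fed WT replicates 1 and 2 reached the lowest KO libraries, and did not overlap on the NASH diet. On that diet 7.67% of all tested genes were higher in KO without overlap. KO exceeded WT by a log2 fold change of 1.56 (SE 0.427, edgeR's adjusted p = 0.037) on chow and 1.75 (SE 0.427, edgeR's adjusted p = 0.0155) on the NASH diet. Neither chain was called for the diet within a genotype, with log2 fold changes of 0.62 (95% interval -0.09 to 1.32) for Col4a1 and 0.69 (-0.20 to 1.59) for Col4a2 in WT, and 0.60 (-0.09 to 1.30) and 0.87 (-0.01 to 1.76) in KO. The exception was limma voom, which called both in WT (0.92 for Col4a1 and 1.5 for Col4a2) along with 40.6% of all genes.

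The Col4a1 call on chow was lost without the 6 libraries of negative slope (1.46, edgeR's adjusted p = 0.0528, within alternatives that ranged from 3.41e-05 to 0.0528), and that on the NASH diet in males alone (1.93, edgeR's adjusted p = 0.0985, within alternatives from 3.46e-05 to 0.0985). For Col4a2 the chow call was lost without chow-fed WT replicate 3, 4 or 5 or chow-fed KO replicate 1 or 2 (log2 fold changes with 1 library left out of 1.14 to 1.94, edgeR adjusted p up to 0.145), in males alone (1.80), with only the 2 groups compared (1.59) and without the libraries of negative slope (1.16), and the NASH call with sex in the model (1.43) and in males alone (2.26).

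The other type IV chains were far lower. Col4a5, which forms a network of its own with Col4a3 and Col4a4, was at 1.58 ± 0.488 CPM in chow-fed WT, 1.57 ± 0.784 in NASH-fed WT, 1.57 ± 0.867 in chow-fed KO and 4.49 ± 2.57 in NASH-fed KO (SD, n = 5), and its log2 fold change of 1.48 in NASH-fed KO against NASH-fed WT was not called (SE 0.485, edgeR's adjusted p = 0.0585). Col4a3 and Col4a4 had group means of 0.210 to 1.10 CPM and were not called in any comparison. Col4a4 was higher in NASH-fed KO than in chow-fed KO without overlap (log2 fold change 1.75, SE 0.6, edgeR's adjusted p = 0.103). This pattern was shared by 4.19% of all tested genes. Of Col4a3, 563 exonic bases overlap a gene on the opposite strand, so its counts are uncertain. Of the 6 type IV members, Col4a6 did not pass the filter.

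Laminins, nidogens and other partners of type IV in the basement membrane were compared as a list of 17 genes, all tested. In NASH-fed KO against NASH-fed WT 5 were called (29.4%), all higher, where 9.65% of all genes were called, 4.9% higher. The 4 with the largest fold changes were Lamb3 (a laminin beta chain, log2 fold change 3.27), the laminin alpha chains Lama5 (1.70) and Lama2 (1.45), and Nid1 (nidogen, which links laminin to type IV collagen, 1.05). Lamb3 was uneven in NASH-fed KO, at 28.8 ± 25.6 CPM (SD, n = 5, 6.71 to 56.9), against 2.93 ± 1.12 in NASH-fed WT. In chow-fed KO against chow-fed WT 1 was called, Lamb3 (2.52), and in NASH-fed KO against chow-fed KO 2, Lamb2 (1.19) and Nid1 (1.05). These were 5.88% and 11.8% of the list, where 5.53% and 3.29% of all genes were called. In NASH-fed WT against chow-fed WT Nid2 (2.03) and Lama1 (1.11) were higher and Lamb3 (-1.87) was lower (17.6%, where 5.93% of all genes were called). That comparison sets 4 females and 1 male against 5 males. On the NASH diet the genotype comparison sets 4 males and 1 female (KO) against 1 male and 4 females (WT). The alternative fits were read for the collagen chains only, so calls in this and the later lists were not checked with sex or slope. The median log2 fold change of the list was 0.48 for the diet in WT, 0.40 and 0.83 for the genotype on chow and on the NASH diet, and 0.93 for the diet in KO, where that of all genes was between -0.02 and 0.01.

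Endothelial markers were read beside type IV collagen. Their 9 genes summed to 252 to 369 CPM in chow-fed WT, 207 to 304 in NASH-fed WT, 305 to 375 in chow-fed KO and 252 to 396 in NASH-fed KO, and none was at 0 throughout. On the NASH diet 2 of the 9 were called higher in KO (22.2%, where 9.65% of all genes were called), Kdr (log2 fold change 0.66) and Lyve1 (1.62). Genotype and sex are partly confounded in that comparison, and Kdr and Lyve1 were not read in the fits with sex. On chow edgeR called 0 of the 9 markers, with 0 at an unadjusted p under 0.05, where 5.53% and 19.4% of all genes were. The genotype fold change was above 0 in 8 of the 9 on chow (median log2 fold change 0.23) and in 8 on the NASH diet (0.36). Of all genes 50.1% and 50.3% were above 0 there. The part of these markers in the type IV difference was not tested.

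**Figure D2:**
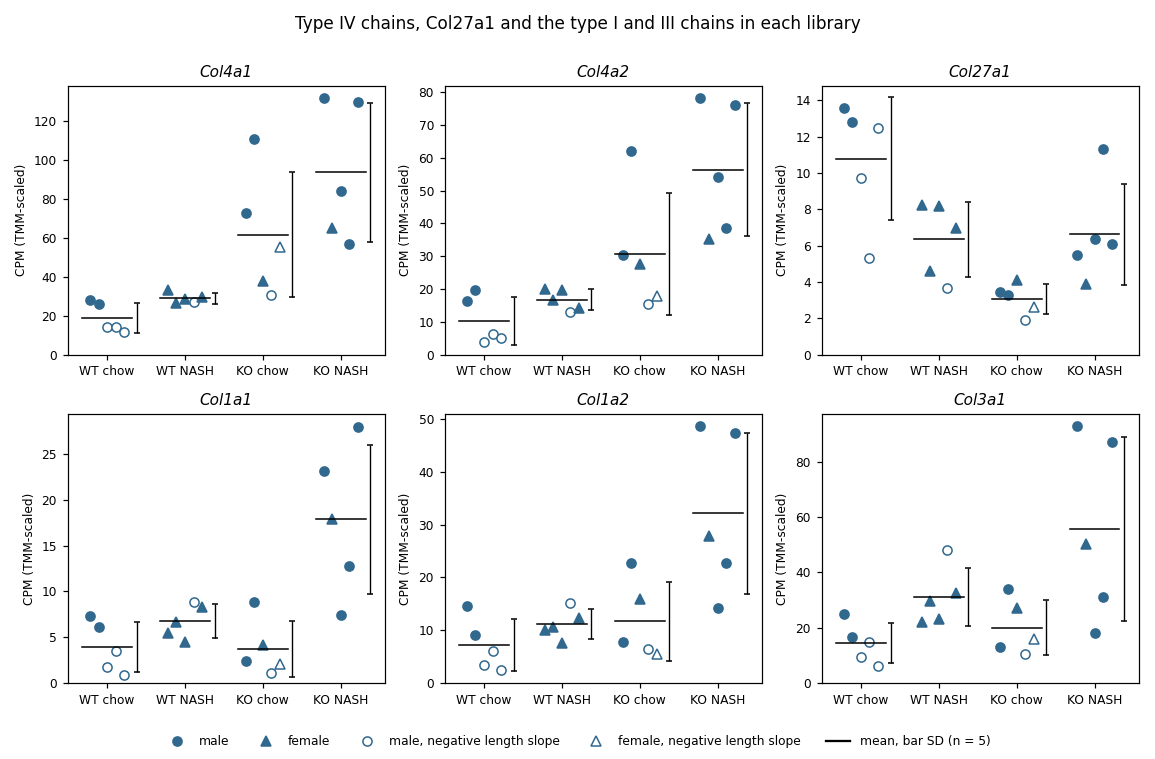
Levels (TMM-scaled CPM, y axis) of 6 collagen chains in the 4 groups (x axis), with 1 point per liver (circles male, triangles female by Y-linked counts, open symbols for the libraries of negative length slope), the mean as a line and the SD (n = 5) as a bar. The KO points of Col4a1 lie above the WT points on each diet, the chow-fed KO points of Col27a1 lie below those of chow-fed WT, and the NASH-fed KO points of Col1a1, Col1a2 and Col3a1 are the most spread.

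The fibrillar chains of types I and III had their highest group means in NASH-fed KO, and 2 calls were made among them. Col1a1, the main chain of type I collagen, was at 7.34, 6.12, 1.69, 3.51 and 0.901 CPM in chow-fed WT, 5.49, 6.70, 4.48, 8.83 and 8.33 in NASH-fed WT, 2.36, 8.89, 4.11, 1.09 and 2.01 in chow-fed KO, and 23.2, 17.9, 7.45, 12.8 and 28.0 in NASH-fed KO. Of the NASH-fed KO libraries replicate 3 alone lay within the range of chow-fed KO. NASH-fed KO exceeded chow-fed KO by a log2 fold change of 2.26 (SE 0.532, 4.79-fold, edgeR's adjusted p = 0.0287). Against NASH-fed WT it was 1.41 (SE 0.52) and was not called (edgeR's adjusted p = 0.0904). In WT, NASH against chow gave 0.76 (95% interval -0.35 to 1.88), and chow-fed KO against chow-fed WT gave -0.09 (-1.20 to 1.03).

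Col1a2, the other chain of type I, was at 14.6, 9.05, 3.38, 6.08 and 2.49 CPM in chow-fed WT, 10.1, 10.6, 7.57, 15.2 and 12.3 in NASH-fed WT, 7.74, 22.8, 15.9, 6.46 and 5.53 in chow-fed KO, and 48.6, 27.8, 14.1, 22.7 and 47.3 in NASH-fed KO. NASH-fed KO replicates 1 and 5 were the highest, and replicate 3 fell within the NASH-fed WT range. It was called in NASH-fed KO against NASH-fed WT, with a log2 fold change of 1.53 (SE 0.461, 2.89-fold, edgeR's adjusted p = 0.0408), and was not called against chow-fed KO (1.45, SE 0.458, edgeR's adjusted p = 0.0822).

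Col3a1, the type III chain found beside type I in scars, was not called in any comparison by the main edgeR fit. Its values were 24.8, 16.5, 9.25, 14.8 and 6.10 CPM in chow-fed WT, 21.9, 29.5, 23.0, 48.1 and 32.6 in NASH-fed WT, 12.8, 33.8, 27.2, 10.4 and 15.7 in chow-fed KO, and 92.8, 50.2, 17.9, 30.9 and 86.9 in NASH-fed KO. Its log2 fold changes were 1.11 (95% interval 0.18 to 2.04) in NASH-fed WT against chow-fed WT, 0.48 (-0.44 to 1.41) in chow-fed KO against chow-fed WT, 0.85 (-0.07 to 1.77) in NASH-fed KO against NASH-fed WT and 1.48 (0.55 to 2.41) in NASH-fed KO against chow-fed KO. NASH-fed KO replicates 1 and 5 again stood above the other three, and the groups overlapped in each comparison. In the annotation Col3a1 shares 141 exonic bases with a predicted gene on the same strand, and its count is uncertain to that extent.

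The type I calls, and those missed by types I and III, depended on the analysis. Col1a1 in NASH-fed KO against NASH-fed WT was called by DESeq2 (1.40), limma voom (1.32), with only the 2 groups compared (1.40) and without the libraries of negative slope (1.52). Col1a2 in NASH-fed KO against chow-fed KO was called by DESeq2 (1.44), limma voom (1.20) and without chow-fed KO replicate 2 (1.85). Col3a1 in that comparison was called by DESeq2 (1.46) and without NASH-fed WT replicate 4 (1.47), chow-fed KO replicate 2 (1.75) or NASH-fed KO replicate 3 (1.70), and for the diet in WT by limma voom (1.38). For Col1a1 the call was lost without chow-fed KO replicate 1, 4 or 5 or NASH-fed KO replicate 1, 2 or 5 (log2 fold changes with 1 library left out of 2.03 to 2.89, edgeR adjusted p up to 0.073), in males alone (2.09) and with NASH-fed KO replicates 1 and 5 summed as 1 sample (2.10). That of Col1a2 was lost without NASH-fed WT replicate 1, 2, 3 or 5 or NASH-fed KO replicate 1, 2 or 5 (1.35 to 1.72, edgeR adjusted p up to 0.102), with sex (1.35), the slope (1.11) or both (0.92) in the model, in males alone (1.16) and with replicates 1 and 5 summed (1.36).

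Type V collagen starts fibrils and sets their width. Its chains Col5a1 and Col5a2 were not called, with 4.62 ± 3.20 CPM in chow-fed WT and 12.3 ± 4.07 CPM in NASH-fed KO for Col5a1 and 2.51 ± 1.31 and 9.29 ± 5.29 CPM for Col5a2 (SD, n = 5). Col5a1 overlaps 2 predicted genes on the opposite strand by 99 and 113 exonic bases. Col5a3, a less common type V chain, was at 12.5, 13.8, 17.4, 6.93 and 12.0 CPM in chow-fed WT, 13.9, 6.35, 12.9, 7.94 and 4.78 in NASH-fed WT, 5.51, 7.68, 7.97, 6.97 and 2.43 in chow-fed KO, and 12.9, 14.0, 23.8, 31.6 and 11.9 in NASH-fed KO. Every NASH-fed KO library lay above every chow-fed KO library, where 4.19% of all tested genes had this pattern. The difference was 1.62 on the log2 scale (SE 0.362, 3.08-fold, edgeR's adjusted p = 0.022).

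In Col5a3 the chow-fed KO mean lay below that of chow-fed WT (log2 fold change -1.03, SE 0.36, edgeR's adjusted p = 0.101) and the NASH-fed KO mean above that of NASH-fed WT (1.04, SE 0.357, edgeR's adjusted p = 0.07), and neither was called. On chow the difference was called with the slope in the model (-1.17). On the NASH diet it was called by DESeq2 (1.03), limma voom (1.13) and without NASH-fed WT replicate 1 (1.24) or chow-fed KO replicate 5 (1.06). The interaction was 2.07 (SE 0.507, edgeR's adjusted p = 0.117) and was called by DESeq2 (2.06), limma voom (2.16) and with the slope in the model (2.12). The call of NASH-fed KO against chow-fed KO was lost without chow-fed KO replicate 1 or NASH-fed KO replicate 4 (log2 fold changes with 1 library left out of 1.35 to 1.75, edgeR adjusted p up to 0.0645) and in males alone (1.57). Col5a3 lies on chromosome 9 from 20770050 to 20815067 (GRCm38, minus strand), directly downstream of the window printed above.

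Col27a1 (chromosome 4, 63214004 to 63334991, plus strand), a fibrillar collagen best known from cartilage, was the only tested chain called lower by the main edgeR fit, in chow-fed KO against chow-fed WT. It was at 13.6, 12.8, 9.75, 5.32 and 12.5 CPM in chow-fed WT and at 3.43, 3.26, 4.11, 1.89 and 2.61 CPM in chow-fed KO, with no overlap (2.65% of all tested genes lay lower without overlap). This was a log2 fold change of -1.82 (SE 0.317, a ratio of 0.284, edgeR's adjusted p = 0.00234). The call was kept in each of the 32 alternative analyses, with log2 fold changes of -2.02 to -1.57 and an adjusted p of at most 0.00984. It was so in males alone (-1.90) and without the libraries of negative slope (-1.87).

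On the NASH diet Col27a1 was not called and the genotypes overlapped. NASH-fed WT libraries were at 8.26, 4.63, 8.17, 3.68 and 6.97 CPM and NASH-fed KO libraries at 5.50, 3.89, 6.39, 11.3 and 6.12 CPM, and the log2 fold change was 0.05 (95% interval -0.60 to 0.70). The interaction was 1.87 (SE 0.438) and missed the threshold (edgeR's adjusted p = 0.0973). DESeq2 (1.86), limma voom (1.47), the fit with the slope (1.91) and the fit without NASH-fed KO replicate 2 (2.01) called it. The diet gave 1.11 in KO (SE 0.312, edgeR's adjusted p = 0.0556) and -0.76 in WT (SE 0.308, edgeR's adjusted p = 0.149), neither called. In KO it was called by DESeq2 (1.09) and without chow-fed WT replicate 4 (1.10), NASH-fed WT replicate 4 (1.10) or chow-fed KO replicate 3 (1.24). In WT it was called lower with the slope in the model (-1).

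Type VI collagen, the beaded filament whose 3 common chains are Col6a1, Col6a2 and Col6a3, was higher in NASH-fed KO than in chow-fed KO in all 3 chains. Col6a1 was at 11.2, 6.23, 3.58, 2.94 and 3.53 CPM in chow-fed WT, 7.36, 7.12, 5.15, 6.33 and 10.3 in NASH-fed WT, 5.05, 8.89, 9.85, 4.43 and 4.50 in chow-fed KO, and 19.7, 12.6, 13.2, 11.5 and 20.1 in NASH-fed KO. The NASH-fed KO libraries lay above those of chow-fed KO (as in 4.19% of all tested genes) and of NASH-fed WT (as in 7.67%). In log2 fold change it was higher by 1.23 (SE 0.337, edgeR's adjusted p = 0.0484) against chow-fed KO and 1.09 (SE 0.338, edgeR's adjusted p = 0.0462) against NASH-fed WT.

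Col6a2 was at 4.98, 3.52, 0.896, 1.04 and 1.04 CPM in chow-fed WT, 3.87, 6.35, 4.12, 3.68 and 7.68 in NASH-fed WT, 3.15, 4.38, 3.51, 2.03 and 2.73 in chow-fed KO, and 12.3, 7.95, 6.83, 6.56 and 12.6 in NASH-fed KO. NASH-fed KO did not overlap chow-fed KO (4.19% of all tested genes were higher without overlap) and overlapped NASH-fed WT. Against chow-fed KO it was higher by a log2 fold change of 1.54 (SE 0.403, 2.91-fold, edgeR's adjusted p = 0.0421). In WT the diet gave 1.14 (SE 0.412), not called (edgeR's adjusted p = 0.109). It was called by limma voom (2.04), with the slope in the model (1.01) and without chow-fed WT replicate 1 (1.63). By limma voom Col6a2 was also called for the genotype on chow (1.39) and on the NASH diet (0.68).

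Col6a3, whose C-terminal fragment is endotrophin, was at 11.2, 5.96, 3.88, 6.46 and 4.71 CPM in chow-fed WT, 11.9, 15.8, 8.90, 15.6 and 14.5 in NASH-fed WT, 4.17, 9.09, 8.32, 2.83 and 6.26 in chow-fed KO, and 31.0, 17.6, 13.7, 16.8 and 38.5 in NASH-fed KO. Both NASH groups stood high, and among the chow libraries WT replicate 1 and KO replicate 2 reached the lowest NASH-fed WT library. NASH-fed KO against chow-fed KO gave a log2 fold change of 1.93 (SE 0.35, 3.82-fold, edgeR's adjusted p = 0.00856), without overlap (as in 4.19% of all tested genes). In WT the difference was 1.04 (SE 0.348), not called (edgeR's adjusted p = 0.0811), and DESeq2 (1.04), limma voom (1.33) and the fit without chow-fed WT replicate 1 (1.34) called it.

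The Col6a3 call was lost in males alone (2.20, edgeR's adjusted p = 0.0693, within alternatives from 1.74e-05 to 0.0693). The Col6a2 call was lost without NASH-fed WT replicate 2 or 3, chow-fed KO replicate 1, 4 or 5 or any NASH-fed KO library (log2 fold changes with 1 library left out of 1.40 to 1.69, edgeR adjusted p up to 0.1), without the low-count filter (1.53), in males alone (1.57) and with NASH-fed KO replicates 1 and 5 summed (1.41). Both Col6a1 calls were lost without the filter (1.22 against chow-fed KO and 1.12 against NASH-fed WT), with sex in the model (1.25 and 1.13), in males alone (1.39 and 1.38) and with replicates 1 and 5 summed (1.12 and 0.99), that against NASH-fed WT also with sex and slope (0.82), and that against chow-fed KO also without the libraries of negative slope (0.96). Leaving out 1 library at a time, the Col6a1 call against chow-fed KO was kept in 7 of 20 fits (1.10 to 1.43, edgeR adjusted p up to 0.116), the exceptions being chow-fed WT replicate 2, NASH-fed WT replicates 1, 2, 3 and 5, chow-fed KO replicates 1, 4 and 5 and each NASH-fed KO library. That against NASH-fed WT was kept in 10 of 20 (0.98 to 1.25, up to 0.112), the exceptions being chow-fed WT replicate 2, NASH-fed WT replicates 1 to 4, chow-fed KO replicate 1 and NASH-fed KO replicates 1, 2, 3 and 5.

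Of the other type VI members, Col6a5 had group means of 0.488 to 1.43 CPM and was not called, and Col6a4 and Col6a6 did not pass the filter. Col6a5 was low, with 0 counts in chow-fed WT replicates 4 and 5 and at most 75 in any library.

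**Figure D3:**
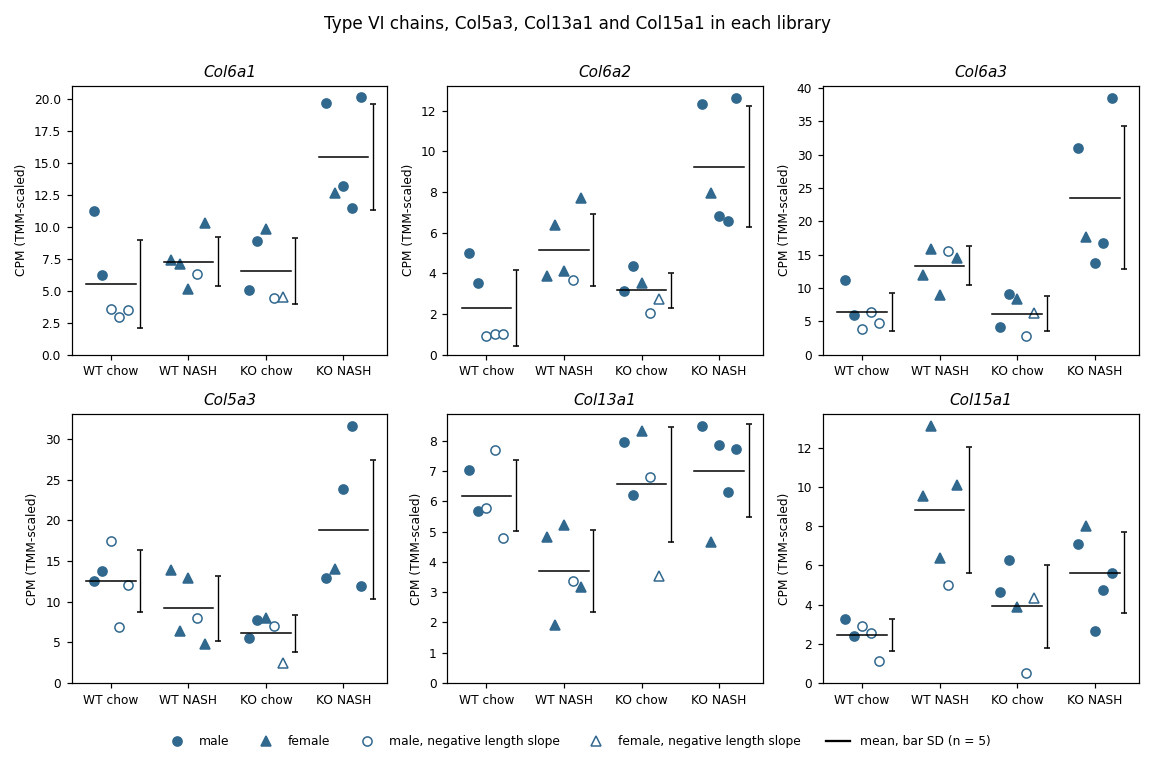
Levels (TMM-scaled CPM, y axis) of Col6a1, Col6a2, Col6a3, Col5a3, Col13a1 and Col15a1 in the 4 groups (x axis), 1 point per liver, symbols as in the plot of type IV and fibrillar chains, mean as a line and SD (n = 5) as a bar. The NASH-fed KO points of the 3 type VI chains and Col5a3 lie above the chow-fed KO points, and the NASH-fed WT points of Col15a1 lie above the chow-fed WT points.

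Multiplexins are basement membrane collagens with an interrupted helix. Col15a1 (chromosome 4, 47208161 to 47313167, plus strand), known from the zone around vessels, was the chain called for the diet in WT, at 3.26, 2.38, 2.89, 2.56 and 1.11 CPM in chow-fed WT and 9.56, 13.1, 6.36, 5.00 and 10.1 CPM in NASH-fed WT. The groups did not overlap (2.9% of all tested genes were higher without overlap). NASH exceeded chow by a log2 fold change of 1.86 (SE 0.447, 3.64-fold, edgeR's adjusted p = 0.0176). In KO it was at 4.63, 6.27, 3.86, 0.508 and 4.31 CPM on chow and 7.08, 7.99, 2.67, 4.74 and 5.62 CPM on the NASH diet, with overlap (0.51, SE 0.426, edgeR's adjusted p = 0.475). NASH-fed KO against NASH-fed WT gave -0.65 (SE 0.423, edgeR's adjusted p = 0.35), not called, and limma voom called it lower (-0.85).

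The lowest of the Col15a1 values in NASH-fed WT belonged to replicate 4, the single male of that group, at 5.00 CPM against 6.36 to 13.1 CPM in its 4 females. With sex in the model the log2 fold change was 1.44 and not called (edgeR's adjusted p = 0.249), with sex and slope 1.14 (0.177), and in males alone 1.01 (0.61), the range over all alternatives being 0.000929 to 0.61. The call was also lost without chow-fed WT replicate 5 or NASH-fed WT replicate 2 (1.68 to 2.00 with 1 library left out, edgeR adjusted p up to 0.0551). Chow-fed WT held no female, so the diet and sex are nearly confounded in this comparison and cannot be told apart in it.

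Col18a1, the second multiplexin, was not called in any comparison. Its libraries spanned 232 to 906 CPM in chow-fed WT, 409 to 1120 in NASH-fed WT, 143 to 693 in chow-fed KO and 568 to 757 in NASH-fed KO. In chow-fed WT the 3 libraries of negative slope were at 232, 272 and 235 CPM and the other 2 at 772 and 906 CPM, and in chow-fed KO those 2 were at 173 and 143 CPM against 424 to 693 CPM in the others. The part of that difference between libraries in the comparisons was not tested for this gene. The log2 fold changes were 0.78 (95% interval -0.15 to 1.70) for the diet in WT, 0.84 (-0.08 to 1.77) for the diet in KO, -0.32 (-1.24 to 0.60) for KO on chow and -0.26 (-1.18 to 0.67) for KO on the NASH diet.

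Col13a1, a membrane-spanning collagen of cell contacts, was at 7.05, 5.69, 5.77, 7.69 and 4.78 CPM in chow-fed WT, 4.84, 1.90, 5.21, 3.38 and 3.16 in NASH-fed WT, 7.97, 6.23, 8.32, 6.82 and 3.52 in chow-fed KO, and 8.48, 4.66, 7.88, 6.32 and 7.75 in NASH-fed KO. NASH-fed WT was the low group, and NASH-fed KO replicate 2, its single female, overlapped it. NASH-fed WT against chow-fed WT gave a log2 fold change of -0.74 (SE 0.274), not called (edgeR's adjusted p = 0.115). Limma voom (-0.83) and the fit with the slope (-0.91) called it lower. NASH-fed KO against NASH-fed WT gave a log2 fold change of 0.92 (SE 0.273, 1.89-fold, edgeR's adjusted p = 0.0378). The call was lost with sex (0.73) or sex and slope (0.59) in the model, in males alone (1.20), with NASH-fed KO replicates 1 and 5 summed (0.88), and without NASH-fed WT replicate 2, 4 or 5 or NASH-fed KO replicate 1, 3, 4 or 5 (0.75 to 1.08 with 1 library left out, edgeR adjusted p up to 0.0929).

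Of 4 tested fibril-associated chains, which sit on the surface of fibrils, edgeR called 0 in each comparison. Those at an unadjusted p under 0.05 numbered 1 for the diet in WT, 2 for the genotype on each diet, 2 for the diet in KO and 0 for the interaction. Of all genes 22.1% were under it for the diet in WT, 19.4% and 25.6% for the genotype on chow and on the NASH diet, 22.2% for the diet in KO and 8.25% for the interaction. Col14a1 was at 35.8 ± 15.4 CPM in chow-fed WT, 55.8 ± 4.96 in NASH-fed WT, 52.4 ± 19.0 in chow-fed KO and 79.2 ± 17.6 in NASH-fed KO. Col12a1 was at 2.01 ± 0.931 and 2.20 ± 0.536 CPM in chow-fed WT and NASH-fed WT and at 4.05 ± 1.95 and 4.50 ± 1.37 CPM in chow-fed KO and NASH-fed KO, with log2 fold changes of 1.04 (SE 0.369, edgeR's adjusted p = 0.107) and 1.03 (SE 0.366, edgeR's adjusted p = 0.0776) between the genotypes on chow and on the NASH diet, the second without overlap. Col16a1 had group means of 0.820 to 2.15 CPM and Col20a1 of 2.67 to 5.53 CPM, each with its highest mean in NASH-fed KO, and Col20a1 shares 79 exonic bases with another gene on the same strand. Col8a1, a short chain collagen of vessel walls, had group means of 0.446 to 0.986 CPM.

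Members of a heterotrimer could be compared within a library as ratios of their raw counts, a choice made after the values had been seen. Over 4 ratios and 5 comparisons, 20 two-sided exact permutation tests were adjusted together, and none passed 0.05. Col1a2 and Col1a1 are used in type I collagen as 2 chains of Col1a1 to 1 of Col1a2, and their count ratio in chow-fed KO was 3.27, 2.57, 3.87, 5.93 and 2.76 in replicates 1 to 5. It was 1.98, 1.48, 2.00, 1.73 and 2.77 in chow-fed WT, 1.84, 1.58, 1.69, 1.72 and 1.48 in NASH-fed WT, and 2.10, 1.55, 1.89, 1.77 and 1.69 in NASH-fed KO.

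Chow-fed KO therefore stood above NASH-fed KO without overlap, by 0.97 on the log2 scale in geometric mean (3.51 against 1.79, exact permutation p = 0.00794, the smallest that 5 against 5 can give, adjusted p = 0.106). Against chow-fed WT (geometric mean 1.95) the log2 difference was 0.85 (exact permutation p = 0.0238, adjusted p = 0.119), with chow-fed WT replicate 5 within the KO range. The highest chow-fed KO ratio rested on 89 counts of Col1a2 and 15 of Col1a1, and the chow-fed WT ratio of 2.77 on 36 and 13. Without the libraries of negative slope chow-fed KO still lay above NASH-fed KO (3.19 against 1.79, exact permutation p = 0.0179, the smallest possible there) and above chow-fed WT (3.19 against 1.71, exact permutation p = 0.1, the smallest possible there), and in males alone it lay above NASH-fed KO (3.68 against 1.86, exact permutation p = 0.0286, the smallest possible there).

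The Col4a2 to Col4a1 ratio had geometric means of 0.474 in chow-fed WT, 0.574 in NASH-fed WT, 0.488 in chow-fed KO and 0.605 in NASH-fed KO (exact permutation tests, adjusted p between 0.271 and 0.925). In males alone NASH-fed KO lay above chow-fed KO without overlap (0.624 against 0.488, exact permutation p = 0.0286, the smallest possible there). Counts grow with transcript length and these ratios were not scaled for it, so they compare groups and not chains. For type VI, Col6a2 to Col6a1 was 0.696 in NASH-fed WT against 0.366 in chow-fed WT (exact permutation p = 0.0159, adjusted p = 0.106) and, without the libraries of negative slope, 0.728 against 0.501 (exact permutation p = 0.2). Col6a3 to Col6a1 was 1.45 in NASH-fed KO against 0.913 in chow-fed KO (exact permutation p = 0.0159, adjusted p = 0.106).

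**Figure D4:**
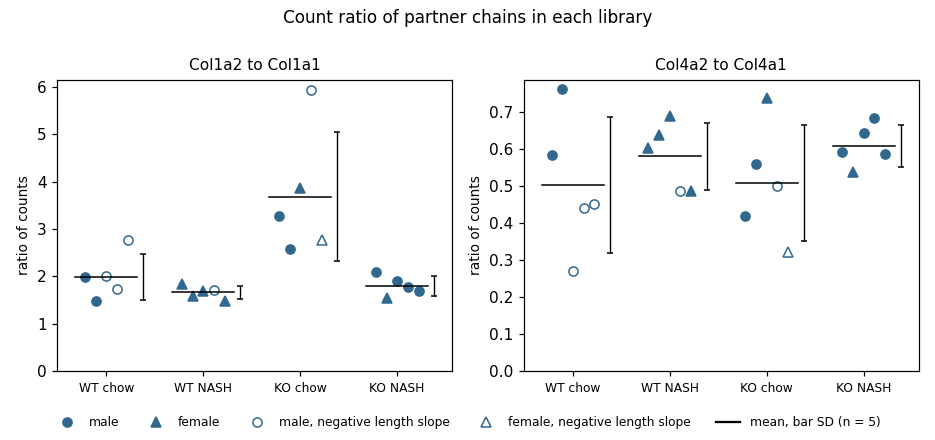
Ratio of raw counts of Col1a2 to Col1a1 and of Col4a2 to Col4a1 (y axes) in the 4 groups (x axis), 1 point per liver, symbols as in the plots of levels, mean as a line and SD (n = 5) as a bar. The chow-fed KO points of the type I ratio (2.57 to 5.93) lie above the NASH-fed KO points (1.55 to 2.10), and the groups of the type IV ratio overlap.

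Enzymes and chaperones that fold, cross-link and trim collagen were taken as a list, of which 23 genes were tested. In NASH-fed WT against chow-fed WT 1 was called (4.35%, where 5.93% of all genes were), P4ha1 (a subunit of the prolyl 4-hydroxylase that stabilises the helix), from 14.6 ± 2.99 to 27.0 ± 5.74 CPM (log2 fold change 0.89, edgeR's adjusted p = 0.0129). Diet and sex are nearly confounded in this comparison, and P4ha1 was not read in the fits with sex. In NASH-fed KO against chow-fed KO 3 were called higher (13%, where 3.29% of all genes were called), Adamts14 (which removes the N-terminal propeptide, 2.01), Serpinh1 (the collagen chaperone HSP47, 1.22) and P4ha1 (0.84). Adamts14 was uneven in NASH-fed KO, at 4.835 ± 3.96 CPM (SD, n = 5, 1.725 to 9.75), and overlapped chow-fed KO (1.19 ± 0.64, up to 1.82). P3h4, a partner of lysyl hydroxylation in the endoplasmic reticulum, was higher in KO than in WT on chow (2.33) and on the NASH diet (1.65), where Adamts14 (1.92) was the other called gene. These calls were 4.35% of the list on chow and 8.7% on the NASH diet, where 5.53% and 9.65% of all genes were called. On the NASH diet genotype and sex are partly confounded, and P3h4 and Adamts14 were not read in the fits with sex. No gene of the list was called lower.

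Among 7 tested collagen receptors Ddr1, a receptor tyrosine kinase for collagen, was called higher in NASH-fed KO than in NASH-fed WT (log2 fold change 2.63, edgeR's adjusted p = 0.0196). Ddr1 was uneven in NASH-fed KO, at 5.09 ± 4.43 CPM (SD, n = 5, 0.958 to 10.7), and overlapped NASH-fed WT (0.789 ± 0.369, up to 1.10). Mrc2, which takes up collagen for degradation, was higher in NASH-fed KO than in chow-fed KO (1.80, edgeR's adjusted p = 0.00942). Each was the 1 receptor called (14.3%), where 9.65% and 3.29% of all genes were called in these comparisons. Of 13 matrix genes that bind collagen, Fn1 (fibronectin, 1.25) and Bgn (biglycan, 0.90) were higher in NASH-fed WT than in chow-fed WT (15.4%, where 5.93% of all genes were called). Diet and sex are nearly confounded there, and the matrix genes were not read in the fits with sex. Eln (elastin, 1.94) and Thbs2 (thrombospondin 2, 1.31) were higher in NASH-fed KO than in NASH-fed WT, and Thbs2 (1.37) also against chow-fed KO. These were 15.4% and 7.69% of the matrix list, where 9.65% and 3.29% of all genes were called. Genotype and sex are partly confounded in NASH-fed KO against NASH-fed WT, where Ddr1, Eln and Thbs2 were called. It sets 4 males and 1 female against 1 male and 4 females, and these genes were not read in the fits with sex. In chow-fed KO against chow-fed WT edgeR called 0 of the 13, with 1 at an unadjusted p under 0.05, where 5.53% and 19.4% of all genes were.

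Markers of collagen-making cells were set beside the fibrillar and type VI values. Of 10 stellate cell markers edgeR called 0 in each comparison, where 0.139% to 9.65% of all genes were called. In the 4 comparisons between groups 1 to 3 of the 10 had an unadjusted p under 0.05. The median log2 fold change of the 10 was 0.42 for the diet in WT and 0.44 for that in KO. It was 0.32 for the genotype on chow and 0.36 on the NASH diet. Above 0 were 7 and 8 of the 10 for the diet in WT and in KO, and 9 for the genotype on each diet. Of all genes 48.3% to 50.7% were above 0. The 10 markers summed to 141 to 293 CPM in chow-fed WT and 199 to 292 in NASH-fed WT. In KO the sum was 187 to 358 on chow and 248 to 361 on the NASH diet. Of 8 genes listed as markers of myofibroblasts and portal fibroblasts 6 were tested and 0 called, and those at an unadjusted p under 0.05 numbered 2 for the diet in WT, 0 and 2 for the genotype on chow and on the NASH diet, 3 for the diet in KO and 4 for the interaction. Of all genes 22.1%, 19.4%, 25.6%, 22.2% and 8.25% were under it. The median log2 fold changes of the 6 tested were -0.42, -0.31, 0.98, 0.95 and 1.43. The list includes Elf3, an epithelial transcription factor rather than a marker of these cells. For the diet in WT Elf3 was at 2.13 (SE 0.846), against -0.96 for Acta2 and -0.92 for Tagln, and 2 of the 6 lay above 0. The counts, medians and sums of this list include Elf3. These 8 summed to 9.98 to 38.6 CPM in chow-fed WT, 7.93 to 18.4 in NASH-fed WT, 11.2 to 15.3 in chow-fed KO and 9.25 to 33.1 in NASH-fed KO, so that the groups overlapped and the highest NASH-fed KO libraries lay above chow-fed KO. No marker of these lists was at 0 in all libraries, and their part in the collagen differences was not tested.

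Hepatocyte markers summed to 54140 to 123200 CPM over the 4 groups and 0 of 7 were called in any comparison, with at most 2 at an unadjusted p under 0.05 by edgeR. In the 4 comparisons between groups 3.29% to 9.65% of all genes were called, and 19.4% to 25.6% had an unadjusted p under 0.05. Cholangiocyte markers had 1 called gene of 5 tested, Sox9, in NASH-fed KO against chow-fed KO (1.83), where 3.29% of all genes were called. Of 6 macrophage markers Cd68 was called higher in NASH-fed WT (1.01) and in chow-fed KO (1.03), each against chow-fed WT. That was 16.7% of the list each time, where 5.93% and 5.53% of all genes were called. Diet and sex are nearly confounded in the first, and Cd68 was not read in the fits with sex. In NASH-fed KO against chow-fed KO, where type VI chains and Col1a1 were higher, 5 of the 6 macrophage markers had a fold change below 0 (median -0.98), none was called by edgeR and 4 had an unadjusted p under 0.05, as did 22.2% of all genes. Their sum was 420 to 1044 CPM in chow-fed KO and 298 to 406 CPM in NASH-fed KO, without overlap, and its part in the collagen differences was not tested. Of 3 tested mesothelial markers edgeR called 0, with at most 1 at an unadjusted p under 0.05.

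The 20 members that did not pass the filter had means of at most 0.354 CPM over the 20 libraries. By class they were Col2a1, Col11a1, Col11a2 and Col24a1 (fibrillar), Col4a6 (type IV), Col6a4 and Col6a6 (type VI), Col9a1, Col9a2, Col9a3, Col19a1 and Col22a1 (fibril-associated), Col8a2 and Col10a1 (short chain), Col17a1, Col23a1 and Col25a1 (transmembrane), and Col7a1, Col26a1 and Col28a1 (others). Most are known from cartilage, skin, nerve or muscle. They were not detectable at a level that allows a comparison at this depth.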

How the data were processed

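Liver RNA was extracted with Trizol, and an integrity number over 8 was required for Illumina libraries, per the labels' protocols. The authors deposited raw counts per gene symbol for 20 libraries. HISAT2 2.0.4 and GRCm38 are named in the submitters' processing notes. The sources used here do not give the counting program, its annotation or its strand setting. Columns of the chow groups are headed CD, which was read as chow diet. The remaining columns are headed HFD and were matched to the NASH diet, the only other diet in the labels.

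In R 4.3.3, edgeR 4.0.16 (filterByExpr with a minimum count of 10, TMM, 1 coefficient per group over 20 libraries, quasi-likelihood F test, Benjamini-Hochberg over 14440 genes, which held 99.91% of counts) gave log2 fold changes, with SE from the F statistic. The common biological coefficient of variation was 39%. CPM use TMM-scaled totals. DESeq2 1.42.0, limma 3.58.1, RLE scaling, no filter, the 2 groups alone, a replicate block, sex and length slope terms, males alone, NASH-fed KO replicates 1 and 5 summed, single libraries left out and, chosen after seeing the data, no libraries of negative slope were the alternatives. NASH-fed KO replicates 1 and 5 were the most alike (median chi-square per gene of 1.52, where sampling noise gives 0.455 and the next closest pair 2.1) and were kept as 2 samples.

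The slope used 9518 genes whose log2 CPM averaged 2 or more. At least 100 Y-linked counts marked males. Coordinates and lengths came from GENCODE M21 (GRCm38), which gave a length for 93.5% of tested genes, and promoters from RefSeq (GRCm38.p6).

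Members and lists were chosen with earlier results of these data known. Values per library are given for Col1a1, Col1a2, Col3a1, Col4a1, Col4a2 and every called member averaging 1 CPM or more, and up to 4 called genes with the largest fold changes are named per list and comparison. Labels number the mice but do not describe separate litters or batches, so p-values measure only the spread between these samples. The fit was also run on counts simulated from mean levels and edgeR's own dispersions, without effects of sex or slope. That run cannot support the calls, since it shares the fit's assumptions.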

Additional observations from a re-analysis of the deposited data

How the results depend on the processing

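The 14 calls of named chains were each read in 32 alternative fits, which gave 448 values. All 448 kept their direction and 350 passed the threshold, and the Col27a1 call on chow passed in each fit. These values are not independent. Some fits leave out a library of a group outside the comparison, which hardly moves the fold change. Counts of called chains follow the order diet in WT, genotype on chow, genotype on the NASH diet, diet in KO and interaction, each with the percent of all tested genes that the same fit called. They stood at 1, 3, 5, 5 and 0 (5.93, 5.53, 9.65, 3.29 and 0.139%). DESeq2 gave 2, 3, 9, 10 and 2 (10.4, 9.63, 15.2, 9.04 and 1.31%), and limma voom with quality weights 11, 8, 13, 6 and 2 (40.6, 40.4, 23.8, 12.7 and 13.5%). With sex as a term they were 0, 3, 1, 4 and 0 (1.11, 5.84, 4.33, 3.98 and 0.0277%), with the length slope 4, 5, 6, 5 and 2 (12.3, 11.5, 16.5, 6.36 and 1.32%), and with both 0, 5, 3, 6 and 0 (5.01, 13.8, 10.5, 9.37 and 0.478%). Males alone gave 0, 2, 0, 0 and 0 (0.596, 6.23, 13, 0.37 and 0.0314%), replicates 1 and 5 of NASH-fed KO summed 1, 3, 2, 2 and 0 (5.37, 4.85, 5.23, 1.23 and 0.0274%), and no libraries of negative slope 1, 2, 10, 5 and 0 (4.88, 5.33, 20.3, 7.69 and 0.518%). Without the low-count filter they were 1, 3, 4, 3 and 0 (2.39, 2.59, 4.54, 0.96 and 0.106%). With 1 library left out they ranged over 0 to 4, 2 to 4, 2 to 6, 1 to 8 and 0 to 1. The replicate number as a block gave 2, 4, 7, 5 and 0 (7.11, 6.11, 10.1, 3.7 and 0.0277%). Under this block Col5a3 was also called for the genotype on chow (-1.12) and on the NASH diet (1.05), and Col6a2 for the diet in WT (1.28). The numbers do not pair the samples, since of 30 pairs of same-numbered libraries 13 had a correlation of deviations over 0.1 and 13 a negative one (-0.41 to 0.52). RLE scaling gave 1, 3, 5, 5 and 0 (6.09, 5.63, 9.58, 3.37 and 0.139%), and the 2 groups alone 1, 2, 7 and 5 (2.74, 2.2, 15.2 and 2.33%). The cause of these shifts was not tested. Chains near 1 CPM rest on about 6.8 to 24.9 reads per library, which limits what can be called. Males alone held 1 NASH-fed WT library.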
